A study of Mus musculus with 6 samples.

Results

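Basement membrane genes, 10 in number, were followed in iPSCs of the mouse (induced pluripotent stem cells, obtained by reprogramming and able to form all tissues of the embryo). They are the laminin chains Lama1, Lama4, Lama5, Lamb1, Lamb2 and Lamc1, the nidogens Nid1 and Nid2, the proteoglycan perlecan (Hspg2) and the matrix protein Sparc. The 10 genes were chosen by name, with earlier results of these data known. They are the rows that carry these symbols among the 24421 gene rows of the deposited count table. All 10 were among the 14778 genes that passed the filter on low counts. RNA was sequenced from 3 libraries of iPSCs with the genotype SRFΔ/Δ (SRF KO, the gene of serum response factor deleted) and 3 libraries of iPSCs with SRFf/f (WT, by the usual notation an allele flanked by loxP sites and not deleted). Both were kept in medium with serum. Neither the Cre nor the origin of the cells is given in the sources used here, and the labels do not say whether the 3 libraries of a group are separate clones or cultures of 1 clone, so that p-values measure the spread between these libraries, which may be technical.

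The basement membrane is a thin sheet of matrix under epithelia. Laminins are trimers of an alpha, a beta and a gamma chain that assemble on the cell surface, nidogens bridge the laminin network to the collagen IV network, and perlecan adds heparan sulfate chains. In the early mouse embryo the primitive endoderm and its descendant, the parietal endoderm, are known as strong producers of laminin with the alpha1, beta1 and gamma1 chains, of collagen IV and of Sparc, while cells of the epiblast also make laminin with the alpha5 chain. Serum response factor (SRF) binds DNA and drives genes of the actin cytoskeleton and of the immediate-early response.

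Total counts were between 26321602 and 36680156 per library. Srf, the targeted gene, had 113, 84 and 131 counts in the libraries labelled SRF KO, against 1326, 765 and 1066 counts in those labelled WT (replicates 1 to 3 in this order, here and below). WT replicate 2 stood apart from the other WT libraries: the chi-square per degree of freedom of its counts was 12.2 and 14.6 against them, while the remaining pairs within a group had between 1.79 and 4.88. Values without this library are given where it bears on a gene below. The defining transcripts of pluripotent cells were present in every library, with Pou5f1 at 773 ± 11.3 CPM after SRF deletion against 818 ± 52.4 CPM for WT (SD, n = 3). CPM stands for read counts relative to library size, scaled by the trimmed mean of M values (TMM). In bulk RNA, a higher share of cells of one type and more RNA per cell cannot be told apart.

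As regulatory sequence, the RefSeq promoter windows (GRCm38.p6, 250 bases before to 50 bases after the transcription start) of 3 of the genes are shown, because these genes differ in direction and size: Lamb1 and Sparc were higher in SRF KO and Lama5 was lower. The table of promoters held 6 of the 10 genes. Each is written 5′ to 3′ on the strand of its gene, with matches to GGGCGG on either strand, the core of the GC box bound by Sp1-type factors, in capitals. The windows lie at chr12:31265043-31265342 on the plus strand for Lamb1, chr11:55420031-55420330 on the minus strand for Sparc and chr2:180225810-180226109 on the minus strand for Lama5.
Lamb1: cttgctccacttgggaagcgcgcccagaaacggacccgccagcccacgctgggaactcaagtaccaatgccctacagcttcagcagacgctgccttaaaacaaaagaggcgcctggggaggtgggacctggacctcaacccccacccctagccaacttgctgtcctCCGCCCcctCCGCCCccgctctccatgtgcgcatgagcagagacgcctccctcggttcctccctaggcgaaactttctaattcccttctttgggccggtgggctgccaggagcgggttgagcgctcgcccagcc
Sparc: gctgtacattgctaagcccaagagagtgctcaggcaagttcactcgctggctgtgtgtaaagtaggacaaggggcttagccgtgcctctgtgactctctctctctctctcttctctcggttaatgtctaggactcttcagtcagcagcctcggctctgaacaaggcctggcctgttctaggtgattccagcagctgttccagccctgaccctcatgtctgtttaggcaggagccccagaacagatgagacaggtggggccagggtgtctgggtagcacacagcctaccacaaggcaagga
Lama5: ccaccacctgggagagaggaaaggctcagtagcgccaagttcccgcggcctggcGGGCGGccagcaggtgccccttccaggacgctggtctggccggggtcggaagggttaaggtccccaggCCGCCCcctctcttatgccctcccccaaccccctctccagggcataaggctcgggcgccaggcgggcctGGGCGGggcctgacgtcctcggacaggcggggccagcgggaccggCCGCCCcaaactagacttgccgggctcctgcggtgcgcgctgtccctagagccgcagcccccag

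The 3 windows differed in composition. GC content was 63.7% with 18 CpG dinucleotides in Lamb1, 55.3% with 4 in Sparc and 72.7% with 24 in Lama5, against a median GC content of 53.0% over 32534 distinct promoters of the same length. GGGCGG was matched 2 times in Lamb1 and 4 times in Lama5 and had no match in Sparc, and 35.9% of all promoters held it. Among the other genes, the Hspg2 window had 5 matches, that of Nid1 had 1 and that of Lamb2 had 0. None of the 6 windows held an exact CArG box, the motif SRF binds, which 1.64% of all promoters held. GATAA, the core of the motif of GATA factors, and TATAAA were also without a match in the 6 windows, against 25.3% and 13.6% of all promoters. Both strands were searched, and since GGGCGG alone was matched no matches to different motifs overlapped. A missing match says only that these letters are not in this window. The RefSeq start was that of the principal GENCODE M21 transcript for Lama5, Hspg2 and Sparc and lay 5, 51 and 59 bases from it for Lamb2, Nid1 and Lamb1.

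Of the 10 genes, 7 rose in SRF KO, 1 fell (Lama5) and 2 did not pass the test (Nid2 and Hspg2), with a median log2 fold change of 0.52. Calls, here and below, rest on the quasi-likelihood test of edgeR, with adjustment by Benjamini and Hochberg over all entries and a threshold of 0.05. Of all genes tested, 21.2% were called higher and 21.3% lower, 42.4% in all, with a median log2 fold change of -0.01. The 10 genes were chosen with earlier results known, so setting them beside these shares is a description. The 3 values of SRF KO lay wholly above those of WT for 7 of the 10 genes and wholly below for 1, Lama5, where 26.2% and 26.5% of all genes tested did so (52.7% in either direction). The 10 genes together took between 0.432% and 0.461% of gene counts in the SRF KO libraries and between 0.232% and 0.274% in the WT libraries. Without WT replicate 2, 7 were higher and 2 lower, where 3652 and 3809 of the 15012 genes tested in that fit were. The plot of levels shows the 6 values of each gene.

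**Figure D1:**
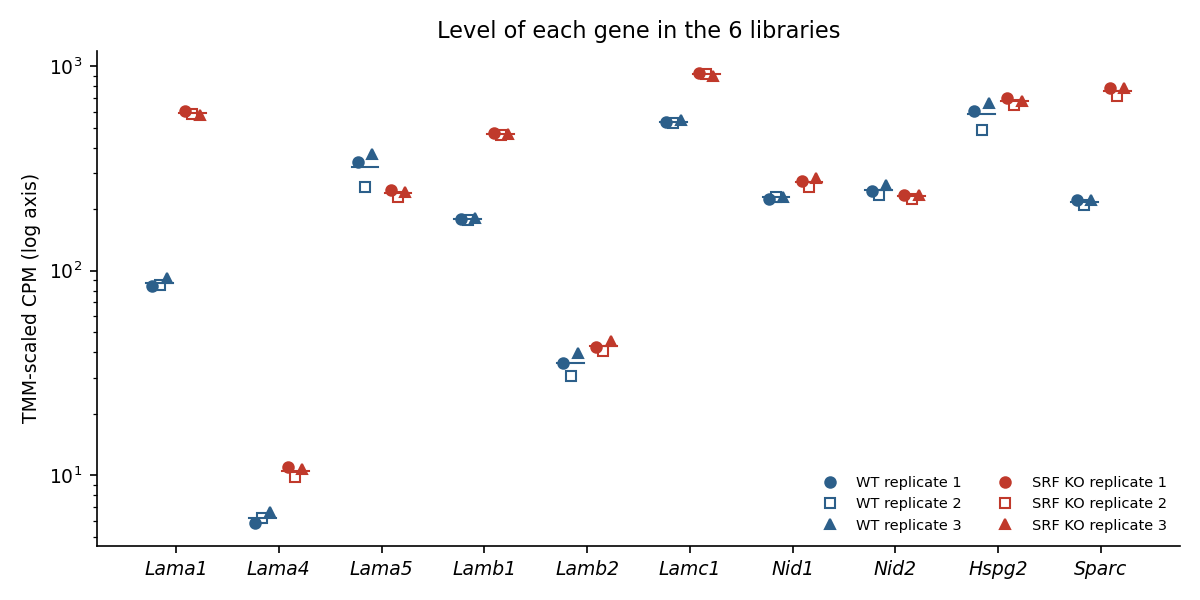
TMM-scaled CPM (log axis) of the 10 genes in each of the 3 WT (blue) and 3 SRF KO (red) libraries, with a bar at each group mean. The groups lie apart for 8 genes and overlap for Nid2 and Hspg2; CPM is not divided by length, so heights are not compared between genes.

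Among the alpha chains, which carry the sites for cell receptors, Lama1 rose most. Lama1 (chr17:67697259-67822647, plus strand, 63 exons) had 607, 584 and 580 CPM in SRF KO and 84.4, 85.4 and 92.4 CPM in WT. The groups lay far apart, and the replicates within each were close. The log2 fold change was 2.76 (SE 0.05, adjusted p 1.2e-11 by edgeR), a 6.75-fold rise, and 72 genes of the 14778 had a larger one. Lama5 (chr2:180176373-180225859, minus strand, 79 exons) went the other way, with 247, 230 and 242 CPM in SRF KO and 339, 258 and 372 CPM in WT. All SRF KO values were below all WT values, but WT replicate 2 lay close to the SRF KO range. Lama5 fell by 0.43 on the log2 scale (SE 0.10, edgeR adjusted p 0.00600). The value was -0.56 without WT replicate 2 and -0.32 without WT replicate 3, and the call held in both.

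Lama4 (chr10:38965515-39110188, plus strand), the alpha chain of vessel walls and mesenchyme, was a low transcript at 11.0, 9.75 and 10.7 CPM in SRF KO and 5.83, 6.18 and 6.59 CPM in WT. Its groups did not overlap, and it rose by 0.76 on the log2 scale (SE 0.09, edgeR adjusted p 6.1e-05).

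The beta chains did not rise to the same extent. Lamb1 (chr12:31265234-31329644, plus strand, 34 exons) had 472, 462 and 467 CPM in SRF KO and 179, 177 and 182 CPM in WT, with almost no spread within either group. It rose by 1.38 on the log2 scale (SE 0.05, edgeR adjusted p 1.0e-09), which is 2.61-fold. Lamb2 (chr9:108479736-108490530, plus strand), the beta chain of muscle and kidney basement membranes, had 42.6, 40.3 and 45.5 CPM in SRF KO and 35.6, 30.7 and 39.8 CPM in WT. The lowest SRF KO value lay just above the highest WT value. Lamb2 passed the threshold at 0.27 on the log2 scale (SE 0.09, edgeR adjusted p 0.0252). The call was lost without replicate 1 of SRF KO (0.28, adjusted p 0.0668) or its replicate 3 (0.23, adjusted p 0.117), and without replicate 1 of WT (0.28, adjusted p 0.0574). Without WT replicate 2 it held at 0.19 (adjusted p 0.0194).

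Lamc1 (chr1:153218922-153332786, minus strand, 28 exons), the gamma chain of most laminin trimers, had 924, 912 and 899 CPM in SRF KO and 531, 525 and 546 CPM in WT. The groups were clearly separate. It rose by 0.77 on the log2 scale (SE 0.05, edgeR adjusted p 1.9e-07), or 1.71-fold.

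To compare the chains with each other, levels were divided by the length of the principal transcript. In WT, Lama5 had 28.4 ± 5.14 CPM per kb and Lama1 9.18 ± 0.461 CPM per kb. In SRF KO the order was turned, with Lama1 at 62.0 ± 1.53 and Lama5 at 21.1 ± 0.775 CPM per kb (SD, n = 3). Lama1 thus made up 71.8%, 72.4% and 71.1% of the summed alpha chains (Lama1 to Lama5, per kb) in SRF KO but 21.3%, 25.8% and 21.4% in WT. The means were 71.8% ± 0.620 and 22.9% ± 2.59 (SD, n = 3), a difference of 48.9 percentage points. The exact two-sided permutation test gave p = 0.1, the smallest that 3 libraries against 3 allow, so no share could pass 0.05.

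The plot of chain levels shows this makeup in each library. Summed over each class, the alpha chains had 86.3 ± 2.10 CPM per kb in SRF KO and 40.5 ± 5.42 in WT, the beta chains 92.0 ± 1.23 and 39.1 ± 1.24, and the gamma chains 123 ± 1.67 and 75.8 ± 1.43 (SD, n = 3). Gamma transcripts were the most abundant class in all 6 libraries, while the WT means of the alpha and beta sums differed by less than the SD of the alpha sum. Of the Lamb1 and Lamb2 sum, Lamb1 made up 91.7% ± 0.440 in SRF KO and 83.7% ± 1.61 in WT. The log2 ratio of Lama1 to Lamc1 per kb was -0.95 ± 0.02 in SRF KO and -2.93 ± 0.05 in WT, a difference of 1.99. Neither of these 2 quantities overlapped between the groups, and each again gave the smallest exact two-sided permutation p of 0.1 (n = 3).

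**Figure D2:**
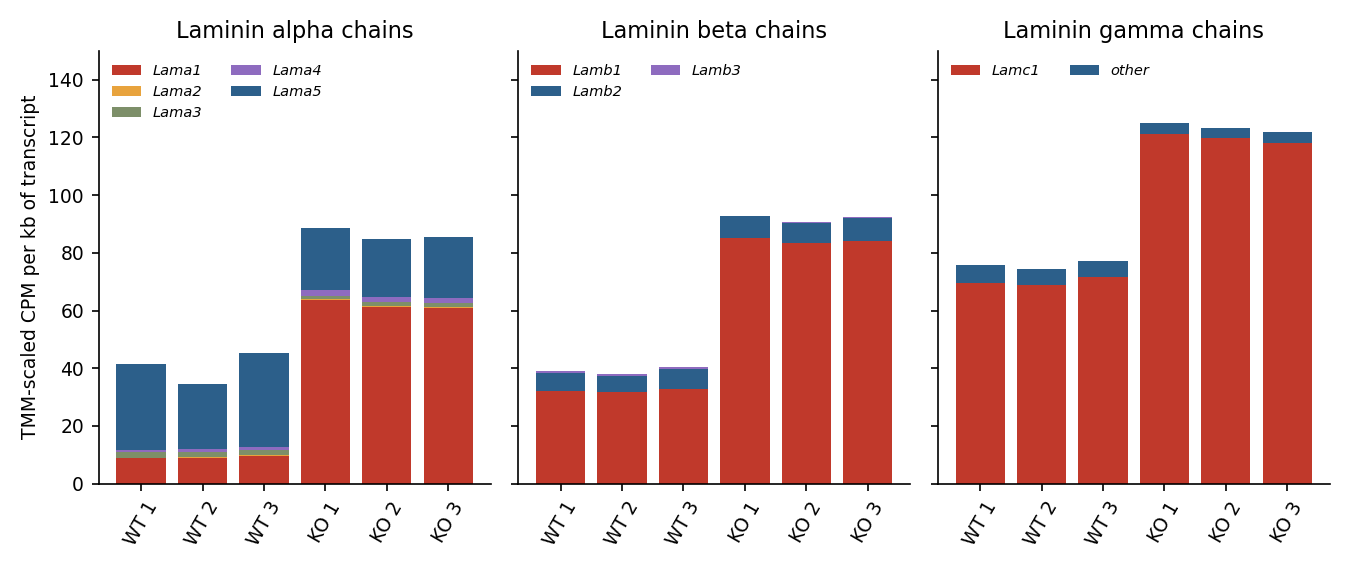
Stacked TMM-scaled CPM per kb of transcript of the laminin alpha, beta and gamma chains in each WT and SRF KO (KO) library, coloured by gene, with the gamma chains besides Lamc1 pooled as other. Lama1 makes up 71.8% of the alpha sum in SRF KO and 22.9% in WT on average, while Lamb1 and Lamc1 lead their class in both groups.

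The nidogens, which link laminin to collagen IV, moved little. Nid1 (chr13:13437551-13512269, plus strand) had 274, 255 and 285 CPM in SRF KO and 225, 230 and 230 CPM in WT. The groups did not overlap, and Nid1 rose by 0.25 on the log2 scale (SE 0.05, edgeR adjusted p 0.00262), or 1.19-fold. Nid2 (chr14:19751265-19811787, plus strand) had 235, 223 and 234 CPM in SRF KO and 246, 235 and 263 CPM in WT. These ranges overlapped narrowly, at SRF KO replicate 1 and WT replicate 2. Its log2 fold change was -0.11 (95% interval -0.22 to 0.01, edgeR adjusted p 0.141). It passed the threshold without WT replicate 2 (-0.14, adjusted p 0.0178) and was -0.06 without WT replicate 3.

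Per kb, Nid1 made up 48.5% ± 0.839 of the 2 nidogens in SRF KO against 42.5% ± 1.38 in WT (SD, n = 3). The groups did not overlap (exact two-sided permutation p = 0.1, the smallest possible). Exons of both nidogens overlap those of a gene on the other strand, by 143 bases with Gm48682 for Nid1 and by 437 bases with Rtraf for Nid2. Whether counting used strand is not given, so reads in those stretches cannot be told apart.

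Hspg2 (chr4:137468769-137570630, plus strand, 97 exons), which encodes perlecan, had 699, 646 and 679 CPM in SRF KO and 607, 488 and 661 CPM in WT. WT replicate 3 lay within the SRF KO range and WT replicate 2 far below it. The log2 fold change was 0.20 (95% interval 0.01 to 0.40, edgeR adjusted p 0.0886), so the test across all genes did not call it. Without WT replicate 2 the value was 0.095 (adjusted p 0.110), and without WT replicate 3 it was 0.30 and passed (adjusted p 0.0101). DESeq2 called it, at 0.21 (adjusted p 0.0425), and so did edgeR with no filter on low counts (0.21, adjusted p 0.0385).

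Sparc (chr11:55394500-55423183, minus strand, 10 exons) encodes a secreted calcium- and collagen-binding protein known as a product of parietal endoderm and of fibroblasts. It had 782, 716 and 782 CPM in SRF KO and 221, 210 and 222 CPM in WT. The groups were wide apart, with SRF KO replicate 2 and WT replicate 2 lowest in their groups. Sparc rose by 1.80 on the log2 scale (SE 0.05, edgeR adjusted p 5.6e-10), or 3.49-fold, and 160 genes had a larger fold change. Per kb, it was the most abundant of the 10 genes in both groups, at 330 ± 16.6 CPM per kb in SRF KO against 94.7 ± 3.10 in WT (SD, n = 3).

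**Figure D3:**
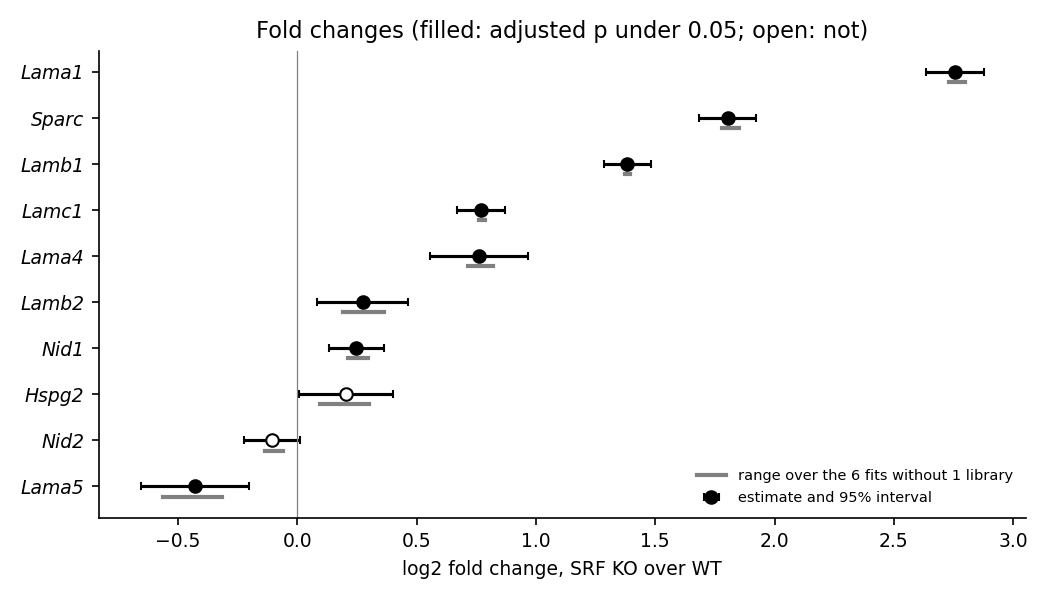
Log2 fold change of each gene, SRF KO over WT, with its 95% interval (black) and the range over the 6 fits that each left out 1 library (grey). Lama1, Sparc and Lamb1 lie at 2.76, 1.80 and 1.38, Lama5 at -0.43, and the ranges are widest for Lama5 and Hspg2.

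The spread of the WT libraries was not the same for all 10 genes. WT replicate 2 lay 0.31 below the WT mean of log2 CPM for Lama5, 0.25 below for Hspg2 and 0.20 below for Lamb2 (values of -0.31, -0.25 and -0.20), and between -0.08 and 0.01 for the other 7. Those 3 genes had the most GC-rich transcripts, at 59.9%, 60.9% and 58.8%, while the others had between 50.03% and 54.55% (values chosen for display after the deviations were seen). Over the 10 genes, Pearson's r between GC content and the deviation of WT replicate 2 was -0.957, and Spearman's rho over the 14244 tested genes with a GC value was -0.619. These genes share a library and a depth, and the 3 deviations of a group sum to zero, so the figures are descriptions. Over all genes, rho was 0.370 and 0.527 in WT replicates 1 and 3, and 0.273, -0.405 and 0.234 in the SRF KO libraries. The part of GC content in the fold changes of Lama5, Hspg2 and Lamb2 was not tested.

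**Figure D4:**
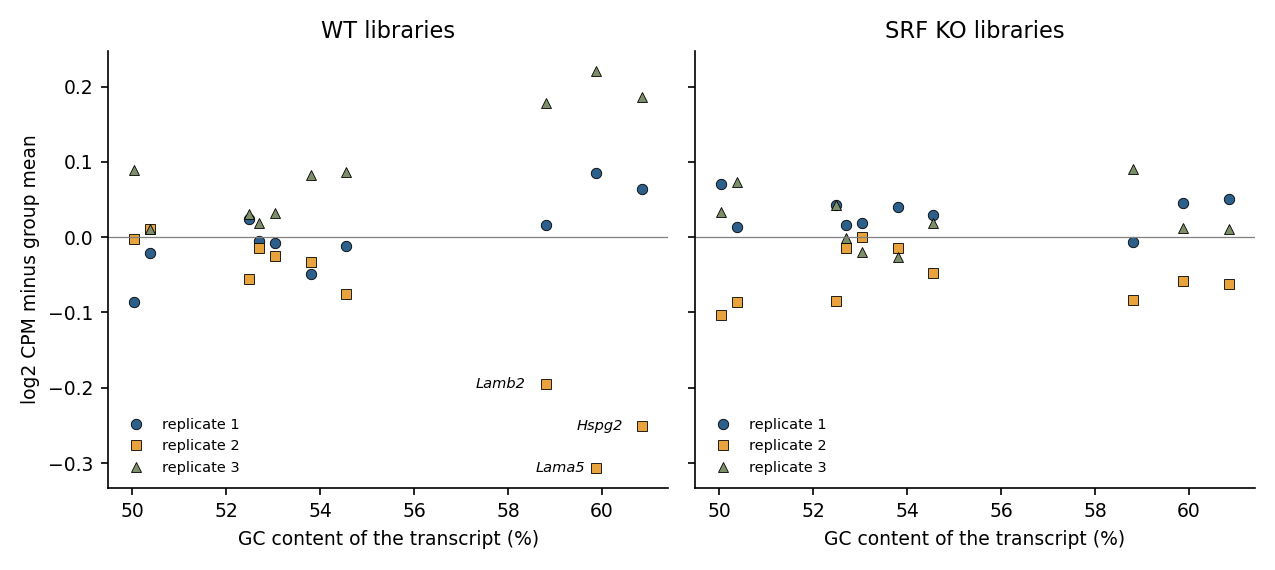
Deviation of log2 CPM from the group mean against the GC content of the transcript for the 10 genes, by library. WT replicate 2 (squares, left) falls to -0.31, -0.25 and -0.20 for Lama5, Hspg2 and Lamb2, and its deviations lie nearer to 0 for the genes under 55% GC.

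The other genes of the pathway were taken from lists typed by name, with earlier results of these data known, so their counts are descriptions. They stand beside 21.2% of all genes tested called higher and 21.3% called lower. Among the remaining laminin chains, Lama2, the alpha chain of muscle, rose from 1.26 ± 0.181 to 2.84 ± 0.476 CPM (SD, n = 3; log2 fold change 1.16, edgeR adjusted p 0.000395). Lama3 and Lamb3, chains found in epithelia such as skin, fell. Lama3 went from 19.5 ± 0.663 to 13.4 ± 0.762 CPM and Lamb3 from 2.50 ± 0.320 to 1.47 ± 0.397 CPM (SD, n = 3), which is -0.54 and -0.75 on the log2 scale. Lamc3 had at most 10 counts in any library and was not tested.

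Collagen IV, the partner network of laminin, rose strongly, and its main pair of chains had larger fold changes than any of the 10 genes. These chains Col4a1 and Col4a2 rose from 72.0 ± 3.27 to 740 ± 36.2 CPM and from 50.6 ± 4.34 to 397 ± 24.7 CPM (SD, n = 3). On the log2 scale the rise was 3.36 and 2.97 (edgeR adjusted p 5.8e-12 and 7.3e-11). Col4a5 rose by 1.02, and Col4a3, Col4a4 and Col4a6 had too few counts to be tested.

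Enzymes and chaperones of collagen and matrix secretion were mostly higher, with 9 of 10 called higher, 0 lower and a median log2 fold change of 0.58. Serpinh1, the collagen chaperone of the endoplasmic reticulum, rose by 1.73 and the prolyl hydroxylase subunits P4ha2 and P4hb by 1.003 and 0.61. Of 9 matrix proteases and inhibitors 7 were higher and 0 lower, with a median of 0.74. The metalloproteinase inhibitors Timp2, Timp3 and Timp1 rose by 1.33, 1.01 and 1.05, and Bmp1, a protease that processes matrix precursors, by 1.05. Both medians stand against -0.01 over all genes, and the counts against 21.2% called higher and 21.3% lower.

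Other basement membrane components went both ways. Of 17 tested, 7 were higher and 5 lower, where 21.2% and 21.3% of all genes tested were. The median of these 17 was -0.11. It was 0.033 with DESeq2 and 0.034 with no filter on low counts, but over all 18 listed genes. Those fits also took in Tinag, which had 1 count in SRF KO replicate 2 and 0 in every other library. The change of sign thus goes with a different set of genes. The collagen IV peroxidase Pxdn rose by 0.76, Fbln2 by 1.08 and Tinagl1 by 1.20, while Frem2 fell by 0.60 on the log2 scale. These counts moved with the libraries used: leaving out replicate 3 of SRF KO gave 4 higher and 3 lower, and leaving out replicate 2 of SRF KO or replicates 1 or 3 of WT gave 3 lower. In the SPARC family, 3 of 5 tested genes were higher and 1 lower, with a median of 0.23. Spock1 rose by 3.54 from a low level of 0.192 ± 0.0703 to 2.24 ± 0.112 CPM (SD, n = 3), Smoc2 by 1.25 and Fstl1 by 0.23, and Spock2 fell by 0.50.

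Of the 11 laminin receptors 5 were higher and 3 lower, where 21.2% and 21.3% of all genes tested were, and the median was 0.14. The integrin subunits Itga3 and Itgb1, which pair as a laminin receptor, rose by 0.75 and 0.72, and the syndecan Sdc4 by 0.29, while Bcam, which binds the alpha5 chain, fell by 0.45. Of the 10 genes that glycosylate dystroglycan, a laminin receptor, 3 were higher and 1 lower, with a median of 0.09. This lies near the share over all genes tested, of which 42.4% were called in either direction. Pomt2 rose by 0.36 and B4gat1 by 0.26. By edgeR, 1 was called higher when replicate 1 or 3 of SRF KO or replicate 1 or 2 of WT was left out, and 0 lower without replicate 1 or 3 of SRF KO or replicate 2 of WT.

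Of 10 genes of heparan sulfate synthesis, which supply the chains of perlecan, 3 were higher and 1 lower, with a median of 0.11. These calls were again near the share of 42.4% over all genes tested. Ext1 and Ext2, which together polymerise the chain, rose by 0.32 and 0.18 and Xylt1 by 1.07, while the sulfotransferase Hs6st1 fell by 0.74. Without WT replicate 2, 5 were higher, where 3652 of the 15012 genes tested in that fit were.

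**Figure D5:**
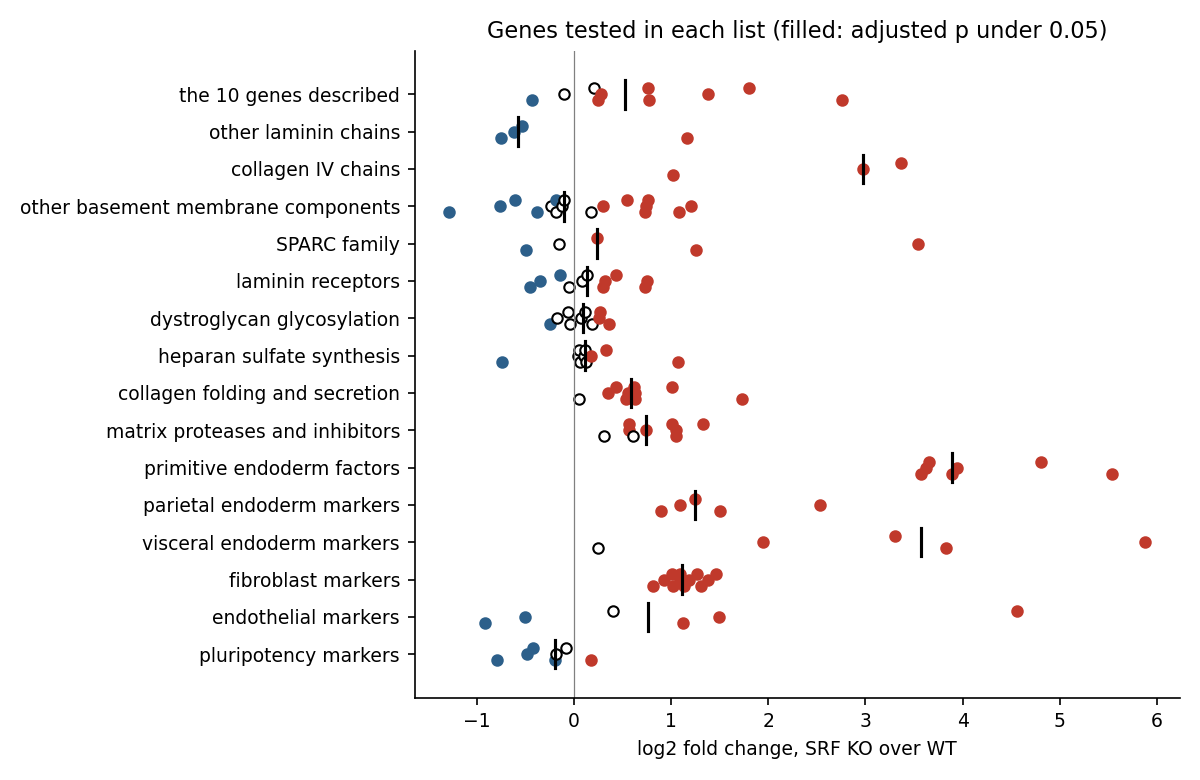
Log2 fold change, SRF KO over WT, of each tested gene by list, with a bar at the list's median; filled red and blue points passed an adjusted p under 0.05. Ttr (visceral endoderm) is not drawn, since its WT libraries held 0 counts; the medians lie between -0.58 (other laminin chains) and 3.89 (primitive endoderm factors).

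Markers of other cell types, from lists chosen in the same way, moved with the same comparison. Of all genes tested, 21.2% were called higher and 21.3% lower. All 7 primitive endoderm factors were higher, with a median of 3.89 and a summed level of 162 to 171 CPM in SRF KO and 10.5 to 11.8 CPM in WT. Gata6 and Gata4 rose by 3.66 and 3.95 and Sox7 by 3.62. All 5 parietal endoderm markers were higher, with a median of 1.25 and sums of 82.3 to 97.7 and 31.2 to 37.7 CPM. Thbd rose from 15.3 ± 2.17 to 43.4 ± 5.0 CPM (SD, n = 3), and Fst, Plat and Pth1r by 1.09, 1.25 and 2.54. Of 6 visceral endoderm markers tested, 5 were higher and 0 lower, with a median of 3.57, also with Ttr at its bound, and sums of 566 to 627 and 11.7 to 13.2 CPM. Nearly all of this sum was Cubn, an endocytic receptor, at 550 to 608 CPM in SRF KO and 9.20 to 10.5 CPM in WT, and the other 6 genes listed summed to 15.3 to 19.1 and 1.98 to 2.68 CPM. Ttr had 0 counts in all WT libraries and 52, 35 and 51 counts in SRF KO, at least 16.5-fold higher against a floor of 3 counts per WT library. Afp, which defines mature visceral endoderm, had at most 3 counts in any library.

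All 12 fibroblast markers were also higher, with a median of 1.11, single values between 0.81 and 1.46, and sums of 871 to 1039 CPM in SRF KO and 429 to 485 CPM in WT. None was at 0. Prrx1, Fbn1, Col3a1 and Col1a2 rose by 1.13, 1.38, 1.09 and 1.09. The fold changes of Lama1 and Sparc were larger than those of all 12, that of Lamb1 lay within their range, and those of Lamc1, Lama4, Lamb2, Nid1 and Hspg2 were below it. Against the parietal endoderm markers, with values from 0.90 to 2.54, Lama1 lay above, Sparc and Lamb1 within and the other members below. All 10 genes lay below the lowest primitive endoderm factor, at 3.57. Of 6 endothelial markers tested, 3 were higher and 2 lower, with a median of 0.76 and sums of 48.7 to 52.2 CPM in SRF KO and 66.5 to 73.5 CPM in WT. Cdh5 rose by 4.56 from 0.195 ± 0.0693 CPM (SD, n = 3), Kdr by 1.49 and Esam by 1.12, while Pecam1, also expressed by pluripotent cells, fell by 0.92. Of 7 pluripotency markers 4 were lower and 1 higher, with a median of -0.20, sums of 4351 to 4475 and 5319 to 5684 CPM, and Nanog, Esrrb, Dppa5a and Tdgf1 at -0.79, -0.49, -0.42 and -0.20. The 1 higher, Zfp42 (0.17), lost its call without replicate 1 or 2 of SRF KO or replicate 1 or 3 of WT. The part of endoderm-like or fibroblast-like cells in the changes of the 10 genes was not tested.

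Last, the genes whose pattern over the 6 libraries was most like that of the most changed members were listed, by the root mean square distance of log2 CPM centred on each gene's mean, among 11191 other genes with a mean of at least 100 counts. Nearest to Lama1 were Col4a2 at a distance of 0.123, the protease Ctsh at 0.133, Ankrd33b at 0.159, Gdpd5 at 0.162 and the hyaluronan synthase Has2 at 0.195, whose log2 fold changes were 2.97, 2.98, 2.74, 2.55 and 2.39. Nearest to Sparc were Scube2 at 0.069, Serpinh1 at 0.070, the transcription factor Ets1 at 0.073, the secreted chaperone Clu at 0.087 and Fam46a at 0.096, with log2 fold changes of 1.92, 1.73, 1.82, 1.95 and 1.72. The distance runs over 6 libraries in 2 groups, so genes with like fold changes lie close by construction.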

How the data were processed

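Per the labels' protocols, RNA was taken with TRIzol and sequenced as paired reads of 150 bp, with adaptors, reads of low quality and reads without sequence taken out. The submitters' processing notes name the genome build mm10 and DESeq2, with no role given; aligner, counting program, annotation and strand setting are not given in the sources used here. The deposited table holds whole-number read counts per gene and per transposable element subfamily in 6 libraries, not normalized by the authors, judged from the values.

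All entries were fitted together with edgeR 4.0.16 in R 4.3.3: filterByExpr (minimum count 10), TMM scaling, the quasi-likelihood test and Benjamini-Hochberg adjustment over all entries, at 0.05, without the replicate number as a term. The script was tested on simulated data. Levels are TMM-scaled CPM. SE is the fold change over the root of its F value, and intervals cover 95%. Shares used counts per kb of the principal GENCODE M21 transcript (GRCm38, the assembly of mm10), with an exact test over 20 assignments. Coordinates are from that annotation. A count of 0 allows up to 3 counts, or 0.0828 to 0.117 CPM, for counting error only.

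Named genes were all 10 members, Srf, up to 4 of each list by p, the 5 nearest to Lama1 and to Sparc, and others whose level or filter result is given; some list genes are not reported here by name. Members and lists were chosen with earlier results of these data known. Alternatives were DESeq2 1.42.0, other scalings, no filter, gene entries alone, a replicate block, other lengths and leaving out each library.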

Additional observations from a re-analysis of the deposited data

How the results depend on the processing

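Lama1, Lama4, Lama5, Lamb1, Lamc1, Nid1, Sparc and Srf kept direction and call under all 12 alternatives. For the shares and the ratio of Lama1 to Lamc1, 8 alternatives were run. The difference between SRF KO and WT stayed within 1 SD (pooled within groups) of its main value in each. The shares and the ratio themselves depend on the length used and were not compared in this way. Leaving out one replicate at a time put Lamb2 between 0.19 and 0.36, Nid2 between -0.14 and -0.062 and Hspg2 between 0.095 and 0.30. Hspg2 passed the threshold with DESeq2 (0.21) and with no filter (0.21). Replicate numbers were taken as names only in the main fit. Libraries that share one deviated together with correlations of 0.042, 0.203 and 0.096, small but all positive. Spearman's rho of the deviations with GC content had the same sign in both groups. It was 0.273 and 0.370 for replicate 1, -0.405 and -0.619 for replicate 2, and 0.234 and 0.527 for replicate 3 (SRF KO, then WT). Whether a replicate number marks a shared batch was not tested. Under a replicate block, Nid2 (-0.10) and Hspg2 (0.22) passed the threshold, 2 members were lower and 2 genes of the SPARC family were lower. Over all 14778 genes tested, that block called 3659 higher and 3853 lower, against 3132 and 3141 in the main fit. Leaving out one replicate gave 6 to 8 members higher and 1 to 2 lower. Over all genes, of which 14905 to 15012 were tested, the same fits called 2457 to 3652 higher and 2274 to 3809 lower.

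Among lists, DESeq2 called 1 dystroglycan gene higher and 0 lower, and library totals alone 0 lower. Leaving out one replicate gave 4 to 6 other basement membrane components higher and 3 to 7 lower, 1 to 3 dystroglycan genes higher and 0 to 1 lower, 2 to 5 heparan sulfate genes higher and 0 to 1 pluripotency markers higher. The cause was not tested. Depth limits low genes such as Lamc3.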
